A study of Mus musculus with 5 samples.

Results

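The caveolae genes examined here are 10 genes chosen by name, out of 57186 genes in the deposited tables. They comprise 3 caveolins (Cav1, Cav2 and Cav3), 4 cavins (Cavin1 to Cavin4), the membrane ATPase genes Ehd1 and Ehd2, and the membrane-bending F-BAR protein gene Pacsin3. All 10 were among the 16412 genes that passed the expression filter and were tested. They were measured by RNA-seq in cardiac atria of MRC2 E990G-het mice, which carry 1 allele with a glutamate-to-glycine exchange in MRC2 (het; replicates 5, 6 and 7), and of wild-type mice (WT; replicates 7 and 8). The series describes 7 het and 8 WT animals between 4 and 10 months of age. The 5 libraries analysed here are all labelled batch 2, and the labels used here name no treatment, strain or sex and do not say how the allele was made. MRC2 is an endocytic collagen receptor of fibroblasts and other mesenchymal cells.

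Caveolae are flask-shaped pits of the plasma membrane, rich in cholesterol. Caveolins oligomerise in the inner leaflet of the membrane, cavins form a coat around the bulb, and EHD and PACSIN proteins act at the neck. Cav1 and Cav2 are the caveolins of endothelium, fat, smooth muscle and fibroblasts, while Cav3 and Cavin4 are made mainly in striated muscle. In the heart caveolae buffer membrane stretch and hold receptors, ion channels and nitric oxide synthase. A whole-atrium library mixes all these cells, so fewer cells of a type and less RNA per cell cannot be told apart in any value below.

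Depth, as the sum of expected counts, lay between 17784601 (WT 8) and 28353091 (het 7). Mrc2 itself stood at 31.0 to 46.7 CPM, a unit of counts scaled to library size, in het and at 34.2 and 43.6 CPM in WT libraries, with a log2 fold change of -0.01 (SE 0.18; edgeR quasi-likelihood adjusted p = 0.973). Gene counts cannot show an amino acid exchange, so they do not check the genotype labels. The atrial genes Nppa, Myl7 and Myl4 had at least 3325 CPM each in every library. Of 7 lung epithelium markers Sftpc and Sftpa1 were at 0 in all 5 libraries, while Napsa had 23 to 25 expected counts in het and 11 and 15 in WT, Ager 5 to 13 in het and 18 and 9 in WT, and Scgb1a1 2 in het 6 only. WT 7 differed from the other 4 libraries in sex-linked genes, with 938 expected counts of the Y-linked Ddx3y against at most 3. It had 21.5 expected counts of Xist, an X-linked RNA of female cells. WT 8 had 6117 and the het libraries 13247 to 15280. By these genes WT 7 was male and the other 4 libraries female, so sex was not balanced between the groups. The part of sex in the results was not tested, beyond the values without WT 7 given below.

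Levels were first compared between members in TPM, a unit of transcript abundance scaled to length and depth. Cav1 was the most abundant member at 157 ± 21.0 TPM (mean ± SD over all 5 libraries), above every other member in each library. Cavin2 (104 ± 19.0 TPM), Cavin1 (101 ± 12.9 TPM) and Pacsin3 (98.6 ± 13.2 TPM) followed, each above the next in 3 of 5 libraries. Cavin2 stood above Cavin1 and Pacsin3 in all 3 het libraries and below both in both WT libraries, while Cavin1 and Pacsin3 changed places within each group. Cav3 came next at 49.0 ± 10.7 TPM, below these 4 and above Ehd1 (32.0 ± 5.0 TPM) in 5 of 5 libraries. Ehd1 in turn exceeded Ehd2 (27.3 ± 5.0 TPM) in 5 of 5. Ehd2 stood above Cavin3 (24.1 ± 4.8 TPM) in 4 of 5 libraries, and Cavin3 above Cav2 (21.7 ± 5.1 TPM) in 3 of 5. Cavin4, the muscle cavin, was lowest at 10.998 ± 1.5 TPM. Even this level exceeded that of 62.8% of tested genes, and the level of Cav1 exceeded that of 96.6%.

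The design sets het against WT atria and asks which genes differ in carriers of the variant. Among the 10 members, Cav3 and Pacsin3 were lower in het and none was higher. Of all tested genes 2.66% were called lower and 2.99% higher (edgeR quasi-likelihood test, adjusted p under 0.05). At an unadjusted p under 0.05 in the same test there were 4 members, Cav2 and Cavin2 besides Cav3 and Pacsin3. Of all 16412 tested genes 4061 had such a p. The median log2 fold change was -0.08 for the members and -0.001 for all tested genes. The CPM ranges of het and WT libraries did not overlap for 8 of 10 members, 3 of them higher and 5 lower in het, where 42.3% of all tested genes did not overlap (21.1% in each direction). In TPM 4 of 10 did not overlap, with Cav1, Cav2 and Cavin2 higher and Cav3 lower, against 38.9% of tested genes (27.7% higher and 11.2% lower).

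**Figure D1:**
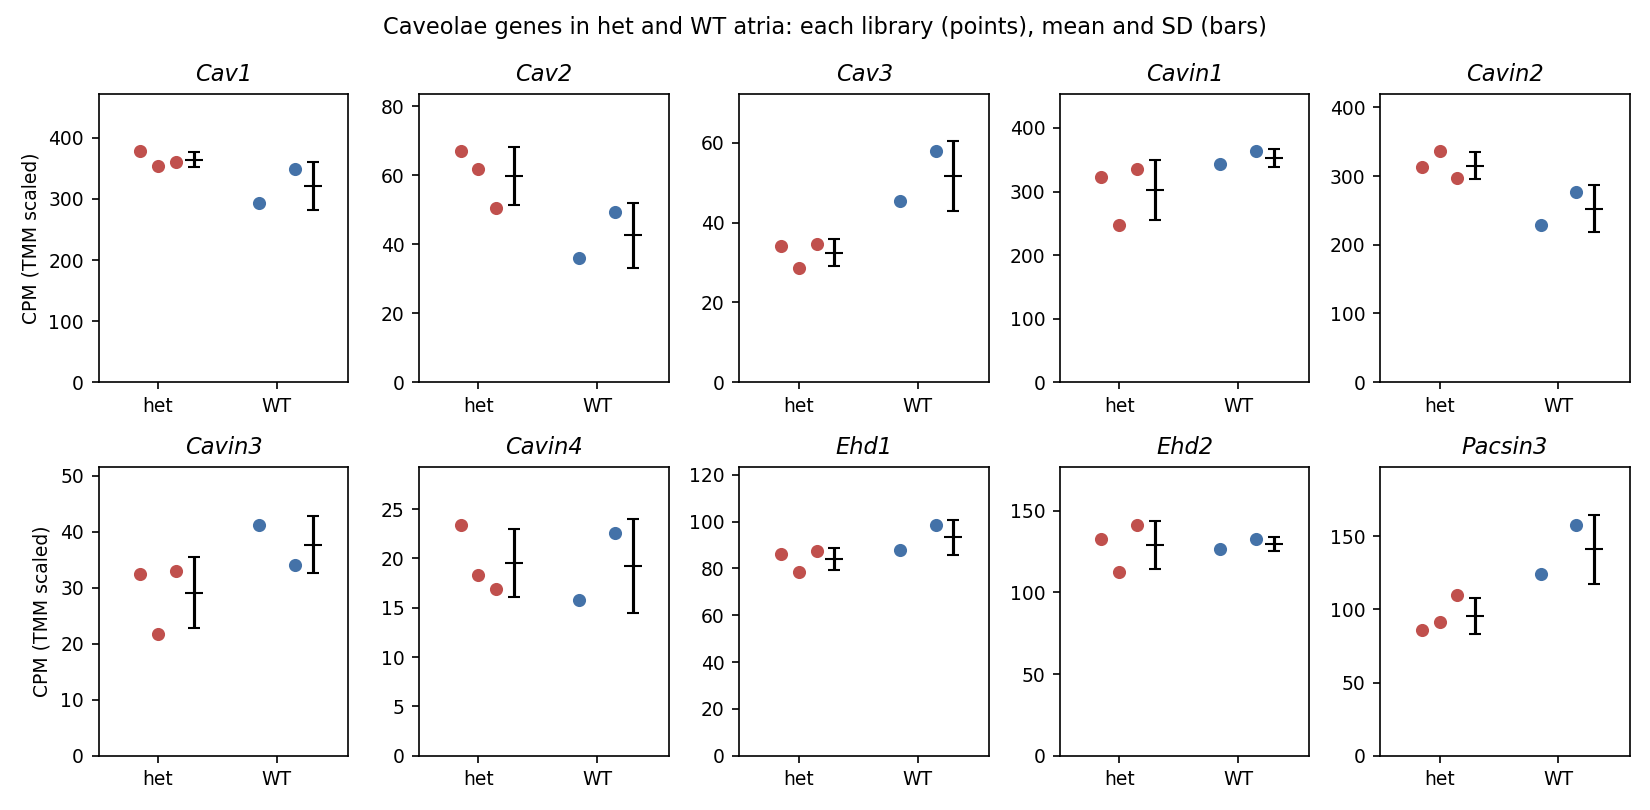
CPM of each caveolae gene in het (left, red, n = 3) and WT (right, blue, n = 2) atria, each axis starting at 0; points are libraries and bars give the mean and SD. All 3 het points lie below both WT points for Cav3 and Pacsin3, and the groups overlap for Cavin4 and Ehd2.

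Cav3, the caveolin of cardiac and skeletal muscle, had 34.1, 28.6 and 34.6 CPM in het libraries 5, 6 and 7, against 45.5 and 57.9 CPM in WT libraries 7 and 8. Every het library lay below both WT libraries. Cav3 fell by 0.67 on the log2 scale, to 0.63 of the WT level (SE 0.15; edgeR adjusted p = 0.031). These values rest on 639 to 1110 expected counts per library. Per length, Cav3 had 40.9, 38.2 and 47.5 TPM in het against 53.2 and 65.1 TPM in WT, again without overlap. Cav3 has a single transcript in the deposited tables, so no shift between transcripts enters its value.

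The 250 bases before the RefSeq start of Cav3 (build GRCm38.p6, plus strand, chr6:112459255-112459504) are shown because Cav3 is the member with the largest fall. No annotated exon overlaps this stretch, and capitals mark matches to the E-box CANNTG, a motif of muscle and other basic helix-loop-helix factors.
Cav3: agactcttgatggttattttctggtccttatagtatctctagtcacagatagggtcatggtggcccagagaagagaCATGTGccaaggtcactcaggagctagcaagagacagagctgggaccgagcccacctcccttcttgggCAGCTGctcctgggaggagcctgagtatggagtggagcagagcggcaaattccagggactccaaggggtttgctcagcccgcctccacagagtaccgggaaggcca
It holds 2 E-boxes, which 66.2% of promoter windows of this length contain at least once. The TATA box TATAAA (in 12.3% of windows), the GC box GGGCGG (33.0%), the TEAD motif CATTCC (12.6%), the CArG box (1.48%) and the MEF2 box (0.513%) were not found in these letters on either strand.

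Cardiomyocyte markers were lower in het as a sum, as Cav3 was. Their summed level ran from 65112 to 73708 CPM in het and was 93094 and 96901 CPM in WT libraries. Of 10 such markers 3 were lower (Nppa, Myl4 and Tnni3) and 1 higher (Ryr2) in het. Of all tested genes 2.66% were called lower and 2.99% higher. The median log2 fold change of the 10 markers was -0.51. With length and GC trends taken out that median was -0.17 and none of the 4 calls held (edgeR adjusted p from 0.299 to 0.688). DESeq2 with the trends left in called 6 of 10 lower and 1 higher, where it called 4.75% of tested genes lower and 5.28% higher. Nppa, the atrial natriuretic peptide gene, had 20388, 17767 and 20476 CPM in het against 27133 and 33852 CPM in WT, a log2 fold change of -0.64 (SE 0.16; edgeR adjusted p = 0.041). Skeletal muscle markers summed to 11.6 to 15.9 CPM in het and to 22.4 and 17.5 CPM in WT. The part of muscle content in the Cav3 value was not tested. Cavin4, the muscle cavin, overlapped between the groups, and the ratio of Cav3 to Cavin4 TPM was 3.13, 3.48 and 4.47 in het against 6.04 and 5.64 in WT. The ratios of the groups did not overlap (exact two-sided permutation p = 0.20, the smallest that 3 against 2 libraries allow). Cav3 (1157 bases, 56.6% GC) and Cavin4 (2054 bases, 47.8% GC) differ in length and GC content. The parts of muscle content and of the length and GC trends in this ratio were not tested.

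Cav1, the main scaffold of caveolae outside striated muscle, had 378, 354 and 361 CPM in het libraries, against 294 and 348 CPM in WT libraries. The het libraries lay above both WT libraries, but WT 8 came close to het 6, the lowest of them. Its log2 fold change of 0.18 (SE 0.14) did not pass the test (edgeR adjusted p = 0.438). In TPM the gap was wider, with 167, 168 and 179 TPM in het and 129 and 140 TPM in WT.

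Cav1 is read from 2 starts that lie 1305 bases apart in RefSeq, and the transcript tables separate them. The upstream start gives Cav1-201 and Cav1-205, which code for the full-length protein of 178 residues, and the downstream start gives Cav1-202, with 147 residues. The 250 bases before each start are shown for comparison (build GRCm38.p6, plus strand; upstream chr6:17306085-17306334, downstream chr6:17307390-17307639), with E-box matches in capitals. The downstream stretch lies in the first intron of Cav1-201, and neither overlaps an annotated exon.
Cav1 upstream start: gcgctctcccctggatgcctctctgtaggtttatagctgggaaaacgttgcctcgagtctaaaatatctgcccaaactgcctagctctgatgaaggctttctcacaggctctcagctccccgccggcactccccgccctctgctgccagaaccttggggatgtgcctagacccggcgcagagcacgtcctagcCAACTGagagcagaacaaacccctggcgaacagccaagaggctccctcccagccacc
Cav1 downstream start: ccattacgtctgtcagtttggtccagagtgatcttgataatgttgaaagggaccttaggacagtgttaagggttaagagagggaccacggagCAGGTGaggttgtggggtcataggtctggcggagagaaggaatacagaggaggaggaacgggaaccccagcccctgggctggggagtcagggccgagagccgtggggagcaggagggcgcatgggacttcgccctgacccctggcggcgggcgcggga
Each stretch has 1 E-box. The upstream one also holds 1 TATA box (TATAAA) and 1 GC box (GGGCGG), counting both strands, and neither was found in the downstream one.

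Reads were assigned to transcripts of both starts in every library, and the split between them is an estimate. Cav1-201 had 108, 107 and 107 TPM in het against 84.9 and 96.2 TPM in WT. Cav1-202 had 48.4, 49.2 and 61.5 TPM in het against 37.4 and 36.3 TPM in WT. Neither transcript overlapped between groups. As a share of Cav1, Cav1-201 made up 64.8%, 63.8% and 60.0% in het and 65.7% and 68.6% in WT, and het 5 came close to WT 7 (two-sided exact permutation p = 0.20). The share of Cav1-202 was 29.0%, 29.3% and 34.3% in het against 29.0% and 25.9% in WT and overlapped (exact p = 0.40).

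**Figure D2:**
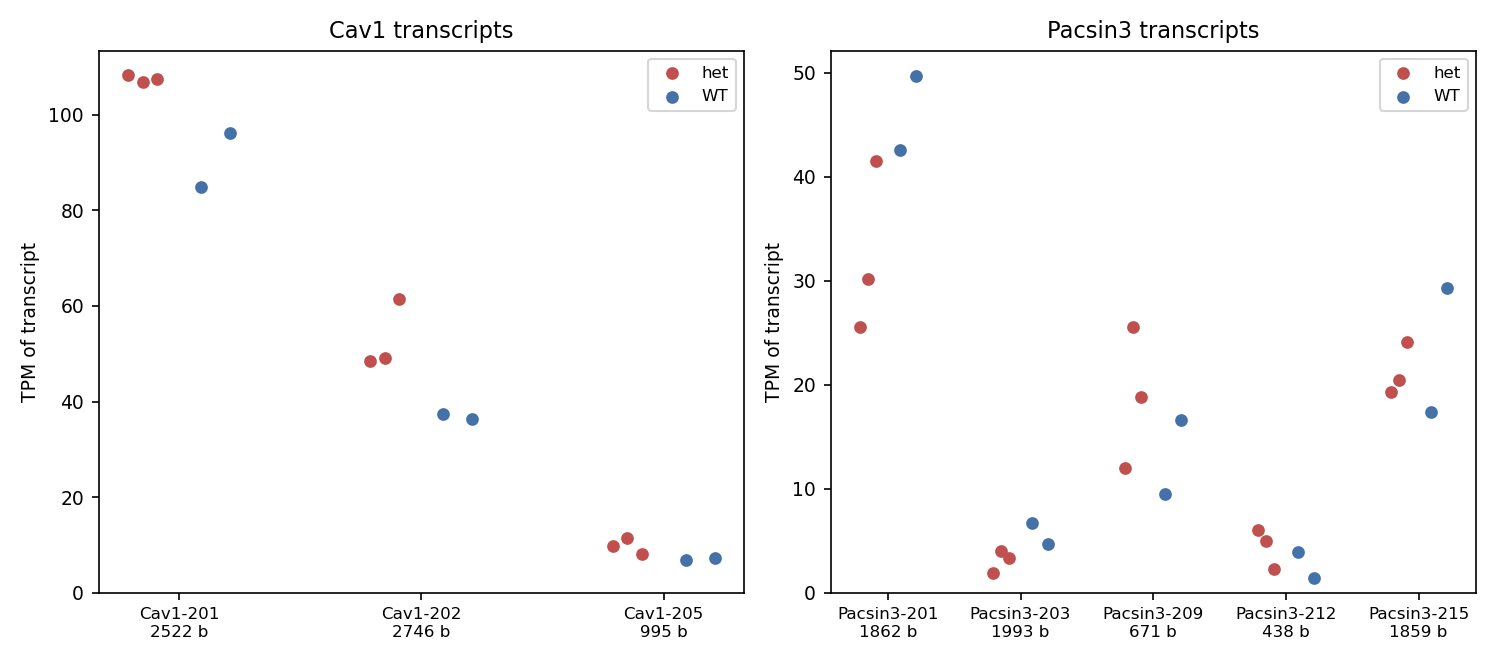
TPM of each Cav1 and Pacsin3 transcript that reached at least 5% of its gene in any library, for het (left of each pair, red) and WT (right, blue) libraries; transcript lengths in bases stand under the names. Cav1-201 and Cav1-202 lie higher in all het libraries, while Pacsin3-201 lies lower.

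Cav2, which assembles with Cav1 and needs it to reach the cell surface, starts 25150 bases upstream of Cav1 on the same strand. It had 67.0, 61.9 and 50.5 CPM in het libraries against 35.9 and 49.3 CPM in WT libraries. The groups did not overlap, although het 7 and WT 8 were close. The log2 fold change of 0.49 (SE 0.17) did not pass the test (edgeR adjusted p = 0.097). Without WT 8 it was 0.75 and passed (adjusted p = 0.036), in a fit that assumes that the lone WT library varies like the het libraries. It was 0.28 without WT 7 (adjusted p = 0.378).

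The mixture of caveolins was set out as shares of their summed TPM. Cav3 made up 17.4%, 16.5% and 19.0% of all caveolin TPM in het libraries against 26.9% and 29.2% in WT libraries. Cav1 made up 71.2%, 72.2% and 71.8% in het against 65.5% and 62.7% in WT, and Cav2 11.3%, 11.3% and 9.1% in het against 7.6% and 8.1% in WT. None of these shares overlapped between the groups (exact two-sided permutation p = 0.20 for each, the smallest possible). The ratio of Cav1 to Cav3 was 4.08 ± 0.31 in het (SD, n = 3) and 2.29 ± 0.20 in WT (SD, n = 2). Summed caveolin TPM were 235, 232 and 250 (het) and 197 and 223 (WT). TPM is scaled to length and depth, not to GC content, which is 46.5% for Cav1, 41.1% for Cav2 and 56.6% for Cav3. With length and GC trends taken out, log2 fold changes were 0.08 (Cav1), 0.24 (Cav2) and -0.31 (Cav3), none called by edgeR. The part of these trends in the shares was not tested.

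**Figure D3:**
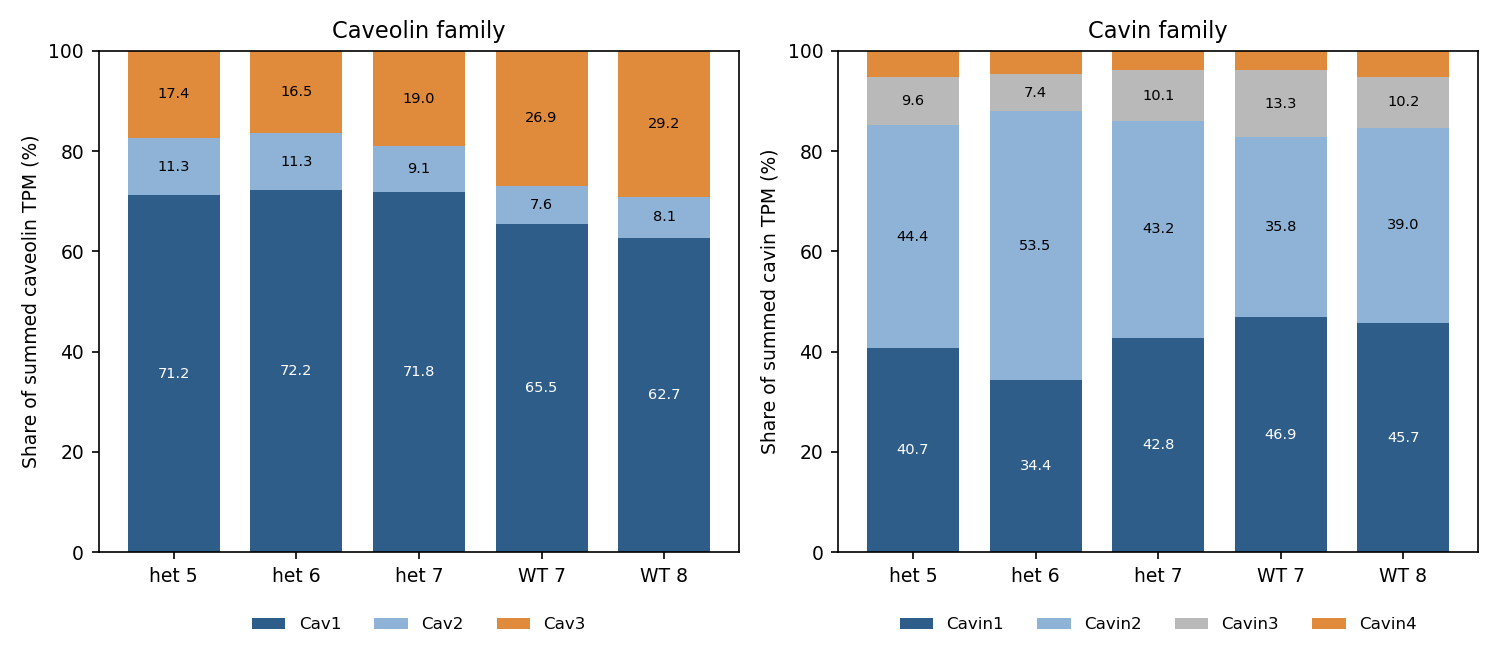
Share of each gene in the summed TPM of the caveolins (left panel) and of the cavins (right panel), in percent, per library with het libraries left of WT libraries. The Cav3 share is 16.5% to 19.0% in het and 26.9% and 29.2% in WT, and Cavin2 exceeds Cavin1 in all 3 het libraries and in neither WT library.

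Among the cavins none passed the test. Cavin1, which is needed for caveolae in every cell type that has them, had 323, 248 and 335 CPM in het against 343 and 363 CPM in WT. Het 6 was well below the other 4 libraries, and het 7 came close to WT 7. Its log2 fold change was -0.23 (SE 0.15; edgeR adjusted p = 0.390). Cavin2, a phosphatidylserine-binding cavin abundant in endothelium, had 313, 336 and 296 CPM in het against 228 and 276 CPM in WT. The log2 fold change of 0.32 (SE 0.14) also missed the threshold (edgeR adjusted p = 0.179), with all het libraries above both WT libraries. The ratio of Cavin2 to Cavin1 TPM was 1.09, 1.55 and 1.01 in het against 0.76 and 0.85 in WT (p = 0.20 by the exact permutation test). Cavin2 transcripts have 44.4% GC and those of Cavin1 58.3%. With length and GC trends taken out, log2 fold changes were 0.10 (Cavin2) and -0.17 (Cavin1), neither called by edgeR. The part of these trends in the ratio was not tested.

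Cavin3, which binds protein kinase C delta, had 32.5, 21.8 and 33.0 CPM in het and 41.3 and 34.1 CPM in WT libraries. Its log2 fold change was -0.37 (SE 0.18; edgeR adjusted p = 0.238), and het 7 lay next to WT 8. Only Cavin1 (in 5 libraries) and Cavin3 (in 4) had expected counts that were not whole (within 0.005). Part of their reads was thus shared with other genes or loci and split by the estimate. Cavin4 had 23.4, 18.3 and 16.8 CPM in het against 15.8 and 22.6 CPM in WT. The groups overlapped, with a log2 fold change of 0.03 (SE 0.19; edgeR adjusted p = 0.950), and its sign turned with upper-quartile scaling (-0.014), without het 5 (-0.12) and without WT 7 (-0.21).

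Of the neck and membrane-bending proteins, Pacsin3 was lower in het. It is the PACSIN of muscle, which curves membranes and is needed for normal muscle caveolae in mice. Pacsin3 had 86.2, 91.6 and 110 CPM in het libraries, against 124 and 158 CPM in WT libraries, and the groups did not overlap. It fell by 0.56 on the log2 scale, to 0.68 of the WT level (SE 0.15; edgeR adjusted p = 0.047). Per length the groups overlapped, with 77.6, 98.1 and 103 TPM in het against 100.05 and 114 TPM in WT. The log2(TPM + 1) difference was -0.21 (limma adjusted p = 0.482), on a scale where 0 genes were called higher and 1 lower of all tested. On counts limma-voom gave -0.56 and did not call Pacsin3 either (adjusted p = 0.067).

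Pacsin3 has 15 transcripts in the deposited tables, of which 5 reached 5% of the gene in any library. Pacsin3-201, which codes for 424 residues, had 25.5, 30.1 and 41.5 TPM in het against 42.5 and 49.7 TPM in WT. Pacsin3-215, which also codes for 424 residues, overlapped, with 19.3, 20.5 and 24.1 TPM in het against 17.4 and 29.3 TPM in WT. Summed over the 3 shown transcripts with 424 residues, the groups overlapped too, with 46.7, 54.6 and 69.0 TPM in het against 66.7 and 83.7 TPM in WT. The share of Pacsin3-201 in the gene was 32.9%, 30.7% and 40.1% in het and 42.5% and 43.7% in WT. The share of the short Pacsin3-209 (671 bases) was 15.4%, 26.01% and 18.2% in het against 9.5% and 14.6% in WT. Neither share overlapped between groups (exact two-sided permutation p = 0.20 for both). Short and long transcripts of Pacsin3 share exons, so these shares are estimates.

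Ehd2, an ATPase that holds caveolae at the surface, had 133, 113 and 141 CPM in het and 127 and 133 CPM in WT libraries. The groups overlapped, at a log2 fold change of -0.01 (SE 0.14; edgeR adjusted p = 0.979) which took the other sign when libraries were scaled by their totals only (0.037). Ehd1, its relative in endosomal recycling, had 86.1, 78.5 and 87.2 CPM in het and 87.9 and 98.6 CPM in WT. The log2 fold change was -0.15 (SE 0.12; edgeR adjusted p = 0.487), and on the log2(TPM + 1) scale it turned to 0.083. Het 7 and WT 7 nearly met.

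The sign of the members' fold changes went with the GC content of their transcripts. Cav2 (41.1% GC), Cavin2 (44.4%), Cav1 (46.5%) and Cavin4 (47.8%) were the 4 members with a positive log2 fold change. The other 6, with 54.8% (Ehd2) to 59.3% (Pacsin3) GC, had negative ones. The same trend ran through the transcriptome, where the median log2 fold change was 0.27 in the lowest and -0.26 in the highest of 10 GC classes of tested genes. It also ran with length, from -0.38 in the shortest to 0.33 in the longest class. Cav3 (1157 bases) and Pacsin3 (1467 bases) are the shortest members, and the medians of their length classes were -0.26 and -0.16.

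Beside those class medians, Cav3 (-0.67) and Pacsin3 (-0.56) lay lower, and Cav2 (0.49) lay above the median of both its GC class (0.27) and its length class (0.05). When the length and GC trends of each library were taken out, 0 of 10 members were called, and of all tested genes 0.0244% were called higher and 0.00609% lower, 0.0305% together. Cav3 then stood at -0.31 (SE 0.14; edgeR adjusted p = 0.444), Pacsin3 at -0.22 (SE 0.15; adjusted p = 0.645), Cav2 at 0.24 (SE 0.13; adjusted p = 0.540) and Cavin2 at 0.10 (SE 0.11). All 10 members kept their sign in that fit.

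**Figure D4:**
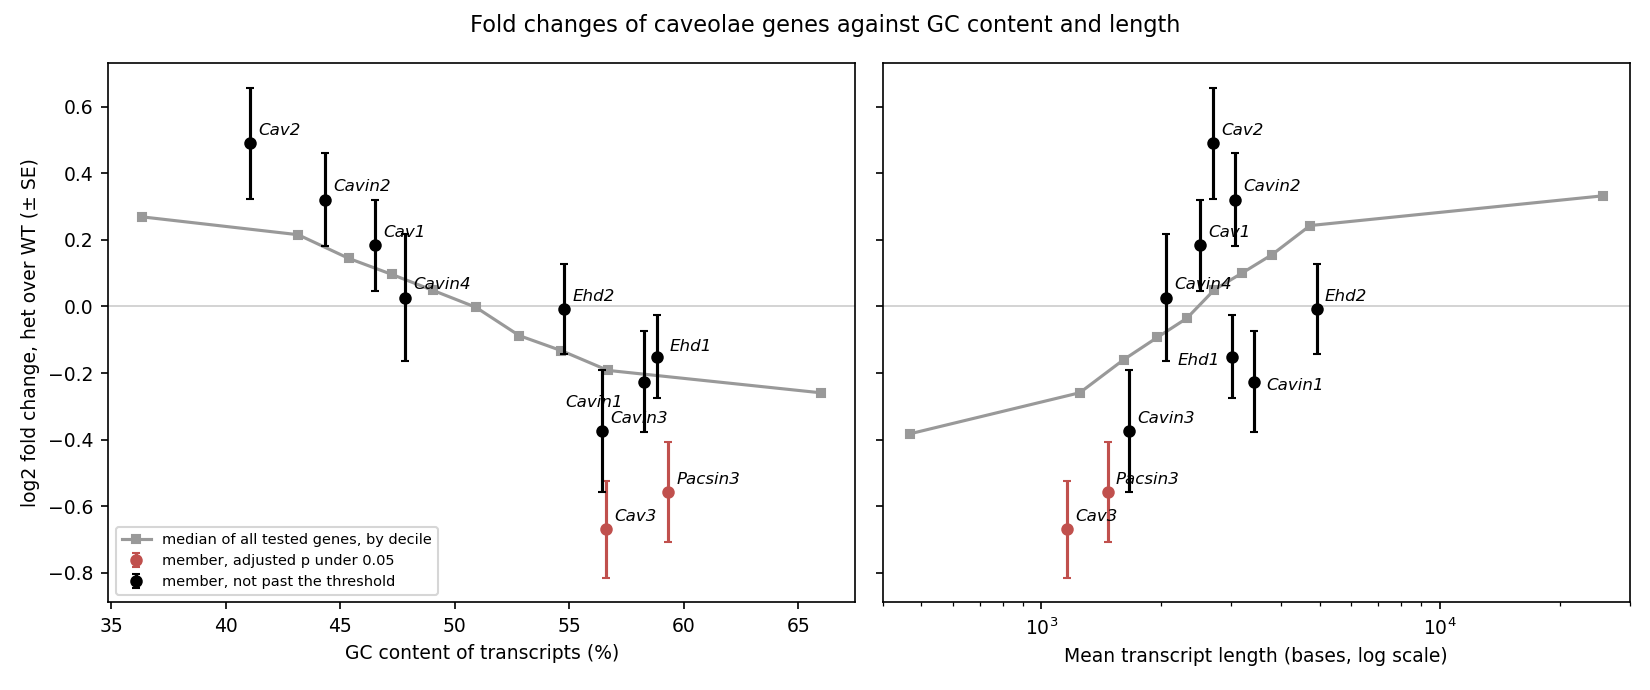
Log2 fold change of each member (het over WT, ± SE) against the GC content (left) and the mean length (right, log scale) of its transcripts; red points passed the adjusted p threshold, and grey squares give the median of all tested genes per class. The 4 members under 50% GC lie above 0, and Cav3 and Pacsin3 lie under the grey line in both panels.

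Both calls were also close to the threshold in other ways. Cav3 passed with DESeq2 (adjusted p = 0.0049), limma-voom (adjusted p = 0.049), both other scalings and both other filters. DESeq2 called 2 of 10 members lower, Cav3 and Pacsin3, where it called 4.75% of tested genes lower and 5.28% higher (10% in all). With scaling by library totals 1 of 10, Cav3, was called lower, where 2.38% of tested genes were lower and 4.84% higher (7.23% in all). It did not pass on the log2(TPM + 1) scale (-0.48; limma adjusted p = 0.171) or with length trends alone removed (-0.41; edgeR adjusted p = 0.211). Leaving out het 5, het 6, het 7 or WT 8 gave Cav3 log2 fold changes of -0.70, -0.58, -0.72 and -0.47 and adjusted p of 0.060, 0.106, 0.067 and 0.097. Pacsin3 gave -0.48, -0.52, -0.67 and -0.36 in the same fits, with adjusted p of 0.128, 0.158, 0.071 and 0.182. Without WT 7 both were called, at -0.83 and -0.72 (adjusted p = 0.024 and 0.035). Few genes of any kind were called with 1 het library fewer: 0 higher and 1 lower without het 5, 5 higher and 6 lower without het 6, and none without het 7 (edgeR; 3549 genes had an unadjusted p under 0.05).

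**Figure D5:**
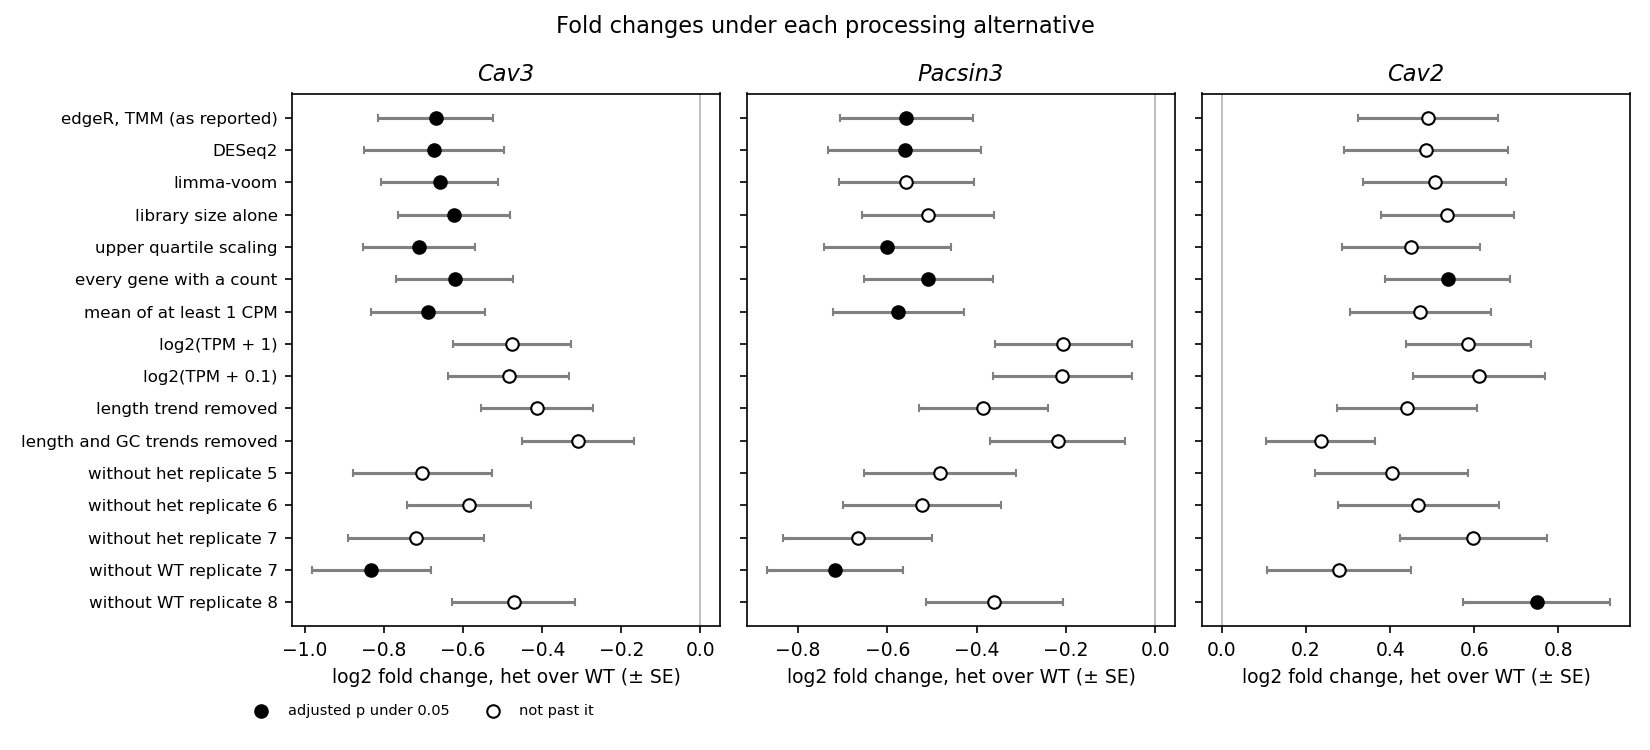
Log2 fold change (het over WT, ± SE) of Cav3, Pacsin3 and Cav2 in the reported fit (top) and each of 15 alternatives; filled points passed an adjusted p of 0.05. Every point of Cav3 and Pacsin3 lies below 0 and every point of Cav2 above it.

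The authors' deposited table, a limma comparison of het with WT atria of the same series, holds 14927 genes and lists all 10 members. In it Cav3 had the largest difference of the members, a log2 fold change of -0.35 with an interval of -0.82 to 0.11 (limma adjusted p = 0.999977). The authors' deposited table gives Pacsin3 at -0.17, Cav1 at 0.05, Cav2 at 0.06 and Cavin2 at 0.10. It gives Cavin1 at -0.06, Cavin3 at -0.24, Cavin4 at 0.17, Ehd1 at -0.22 and Ehd2 at -0.12. No gene (0%) of the authors' deposited table had an adjusted p under 0.05, and the smallest was 0.277. Since animals may be shared between that table and the 5 libraries, its values stand beside the ones above and do not test them.

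Genes that work with caveolae were taken as 4 lists with 75 genes in all, all of them tested. Of these 6 were higher and 0 lower in het, which is 8% called, where 5.64% of all tested genes were called in either direction. Among 25 signalling proteins reported in caveolae 3 were higher, among them Tgfbr1, a TGF-beta receptor (0.75, SE 0.15), and Bmpr1a, a BMP receptor (0.65, SE 0.14). The median of that list was 0.23. Among 16 channels and transporters 2 were higher, the inward rectifier Kcnj2 (0.70, SE 0.14) and the KATP channel subunit Abcc9 (0.70, SE 0.14). Of 16 membrane lipid genes the cholesterol exporter Abca1 was higher (0.64, SE 0.16). Transcripts of these 6 genes are long, 5444 bases (Kcnj2) or more. Once both trends were taken out, Tgfbr1 stood at 0.33 and Bmpr1a at 0.23, and 0 of these 6 genes passed the edgeR test.

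Membrane-shaping relatives of the members had 0 calls of 18 by the edgeR quasi-likelihood test, 5 with an unadjusted p under 0.05, and a median of -0.07. Of all 16412 tested genes 4061 had an unadjusted p under 0.05 in that test. DESeq2 called 3 of these relatives lower, upper-quartile scaling 2 lower, and the fit of every gene with a count 3 lower and 1 higher. Of all 16412 genes DESeq2 called 780 lower and upper-quartile scaling 568. The fit of every gene with a count called 907 lower and 1304 higher of 31569. The most abundant genes of this list were Tcap and Ehd4. Tcap was counted in it, but is a titin-binding protein of the Z-disc and transverse tubule and no relative of the members. Tcap had 868, 1748 and 941 CPM in het against 2918 and 1977 CPM in WT, without overlap, but its log2 fold change of -1.05 (SE 0.37) did not pass the test (edgeR adjusted p = 0.163). Ehd4 stood at 732, 797 and 777 CPM in het and 722 and 899 CPM in WT (-0.08, SE 0.15). The 5 libraries overlapped for Ehd4.

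Markers of endothelium, smooth muscle, fibroblasts and macrophages did not all move one way. For the edgeR counts of calls below, 2.66% of all tested genes were called lower and 2.99% higher. Endothelial markers summed to between 1496 and 1683 CPM in het and to 1577 and 1595 CPM in WT. Of 10 such genes 1 was lower (Egfl7) and 0 higher. The most abundant were Eng (-0.14, SE 0.14), Egfl7 (-0.60, SE 0.15) and Pecam1 (0.26, SE 0.14). Smooth muscle markers summed to 301 to 416 CPM in het and to 505 and 416 CPM in WT, with 1 higher (Myocd, 0.85, SE 0.18) and 1 lower (Tagln, -0.93, SE 0.14) of 8. Smtn (-0.39, SE 0.19) and Acta2 (-0.84, SE 0.29), abundant like Tagln, were not called. The median log2 fold change of smooth muscle markers was -0.48, and -0.46 with both trends taken out, when 0 of 8 were called. DESeq2 called 3 of them lower and 1 higher, and the fit of every gene with a count 4 lower and 1 higher. Of all tested genes DESeq2 called 4.75% lower and 5.28% higher, and the other fit 907 lower and 1304 higher of 31569. Fibroblast markers summed to 5046 to 5344 CPM in het and to 5428 (WT 7) and 3324 (WT 8) CPM, with 1 higher (Lum, 0.50, SE 0.13) of 8. By abundance Gsn (0.22, SE 0.21), Dcn (0.39, SE 0.17) and Dpt (0.27, SE 0.21) came first, none of them called. Macrophage markers summed to 481 to 689 CPM in het and to 405 and 443 CPM in WT, with 2 higher (Adgre1 and Cd163) of 8. The most abundant macrophage markers, Lyz2 (0.50, SE 0.17), C1qa (0.10, SE 0.14) and C1qb (0.06, SE 0.15), were not called. With both trends taken out, Egfl7, Lum, Adgre1 and Cd163 were not called either (edgeR adjusted p = 0.678, 0.345, 0.092 and 0.149).

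Adipocytes are rich in Cav1 and Cavin1, and their marker levels differed between single libraries. White adipocyte markers summed to 189, 274 and 358 CPM in het libraries 5, 6 and 7. In WT libraries 7 and 8 they summed to 184 and 358 CPM. By edgeR 0 of 8 were called and 0 had an unadjusted p under 0.05, against 4061 of all 16412 tested genes. Plin4, a lipid droplet coat protein, made up most of these sums, with 178, 251 and 188 CPM in het and 139 and 197 CPM in WT. Cfd, the adipocyte protease adipsin, had 4.4, 10.2 and 85.3 CPM in het and 24.1 and 98.8 CPM in WT. Adipoq, the adiponectin gene, had 2.0, 2.5 and 23.7 CPM in het and 6.2 and 17.1 CPM in WT, so that het 7 and WT 8 were the highest libraries for both. Ucp1, the uncoupling protein of brown fat, had 33.8 CPM in het 7 and at most 0.94 CPM in the other 4 libraries. The part of these cell types in the members' values was not tested.

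Among 9287 characterised genes with a mean of at least 10 CPM, those closest to Cav1 over the 5 libraries, by the root mean square difference of centred log2 CPM, were Ube2j1 (0.021), Tex2 (0.025), Ddx10 (0.026), Kdr (0.029) and Tial1 (0.029). The median gene differed from Cav1 by 0.20. Kdr is the endothelial VEGF receptor gene. Closest to Cav3 were Fam221b (0.015), Nppa (0.026), Mrps7 (0.052), Tsfm (0.056) and Cd320 (0.063), where the median gene differed by 0.39. Among the members Cavin2 was nearest to Cav1 (0.10) and Pacsin3 nearest to Cav3 (0.13), and Cav1 and Cav3 differed by 0.42. Ehd2 (0.15), Cavin4 (0.17) and Ehd1 (0.17) were also closer to Cav1 than the median gene. Cav2 (0.20), Cavin1 (0.25), Cavin3 (0.38) and Pacsin3 (0.39) were not. The closest genes were picked out of all 9287 by these same values, so their closeness tests nothing.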

How the data were processed

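Stranded polyA libraries of 3 het and 2 WT atria were analysed, grouped by sample title. Expected counts and TPM per gene and transcript, and isoform percent, were deposited by the authors from RSEM, per the file headers. Per the submitters' processing notes, which give no versions, STAR and RSEM were used with build GRCm39, besides Trim Galore, FastQC, MultiQC, SAMtools, edgeR and limma. The authors' deposited table holds log2 fold changes, moderated t scores and p-values, and its model is not given in the sources used here.

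Members, lists and alternatives were chosen with earlier results of these data known. Named genes were all members, Mrc2 and the 5 genes most like Cav1 and Cav3. From each pathway list up to 4 called genes by p were chosen, or the 2 most abundant. Up to 3 most abundant markers per list were also named, except skeletal muscle markers and brown adipocyte markers other than Ucp1. Ddx3y, Xist and the called markers Tnni3, Ryr2, Myocd, Lum, Adgre1 and Cd163 were named after their values were seen. Of the called signalling genes 1 is not reported here. Markers were chosen from general knowledge.

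Expected counts were rounded. Of 57186 genes 16412 passed edgeR's default filter. After TMM scaling, the groups were compared by edgeR's robust quasi-likelihood test, with Benjamini-Hochberg adjustment over all tested genes at 0.05. The SE is the absolute log2 fold change over the square root of F. The biological coefficient of variation was 0.18. Totals of 17784601 to 28353091 counts set the precision. Length is the RSEM gene length and GC content that of GENCODE M21 transcripts (97.9% of tested genes matched). Trends on them were fitted per library with mgcv on genes with a mean of at least 1 CPM and entered as offsets. The other alternatives were DESeq2, limma-voom, other scalings and filters, limma on log2(TPM + 1) and log2(TPM + 0.1), and each library left out. Code was tested on simulated data. With 3 against 2 libraries the smallest two-sided exact p is 0.2. Promoter windows come from RefSeq (GRCm38.p6), which held 8 of 10 members, all but Cavin3 and Ehd1. Versions were edgeR 4.0.16, DESeq2 1.42.0, mgcv 1.9.3 and limma 3.58.1 under R 4.3.3.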

Additional observations from a re-analysis of the deposited data

How the results depend on the processing

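Cav1, Cav2, Cav3, Cavin1, Cavin2, Cavin3 and Pacsin3 kept their direction under all 15 alternatives. The count of members called lower in het, 2 in the reported fit, was 1 with limma-voom and with library size alone (Cav3 in both), and 0 on both TPM scales, with the length trend removed and with length and GC trends removed. With 1 library left out it ran from 0 to 2. The count called higher was 1 (Cav2) with every gene with a count, and 0 to 1 with 1 library left out. The sign turned for Cavin4 with upper-quartile scaling (-0.014) and, with 1 library left out, between -0.21 and 0.32. Ehd1 turned on the log2(TPM + 1) (0.083) and log2(TPM + 0.1) (0.085) scales. Ehd2 turned with library size alone (0.037), every gene with a count (0.041), log2(TPM + 1) (0.13) and log2(TPM + 0.1) (0.13), and ran from -0.081 to 0.083 with 1 library left out. The cause was not tested.

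Over all tested genes 490 were higher and 436 lower. Library size alone gave 795 and 391, upper-quartile scaling 327 and 568, DESeq2 867 and 780, limma-voom 237 and 222, every gene with a count 1304 and 907, the length trend removed 7 and 9, and length and GC trends removed 4 and 1. On log2(TPM + 1) and log2(TPM + 0.1) the calls were 0 and 1, and 2 and 3, and the median of all genes moved to 0.099 and 0.13. Leaving out WT 7 gave 260 and 134, and leaving out WT 8 gave 588 and 290. A fit with 1 WT library assumes that it varies like the het libraries. No paired analysis was made, because the labels used here do not pair any het library with a WT library.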
